A study of Mus musculus with 12 samples.

Results

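The genes described here are Tgfb1, Tgfbr1, Tgfbr2, Tgfbr3, Acvr2a, Acvr1, Smad2, Smad3, Smad4 and Smad7, which encode a ligand, receptors and SMAD proteins of the TGF-beta and activin pathway. They were taken by name, as the probe sets whose platform annotation gives exactly 1 gene symbol, and make up 10 of the 19938 genes measured in this way. Each had a single probe set. Acvr1 lay below the filter on low signal, so 9 of the 10 were tested among 11963 genes.

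RNA was measured in natural killer (NK) cells, the cytotoxic innate lymphocytes, sorted as CD3- NK1.1+ cells. The 4 groups, with 3 arrays each, were bone marrow NK cells of miR-142 knockout (KO) mice, bone marrow NK cells of wild-type (WT) mice, spleen NK cells of KO mice and spleen NK cells of WT mice. All mice were C57BL6, between 7 and 10 weeks old, with KO and WT matched for age and sex. The sources used here name neither the KO allele nor any pooling of animals. The arrays of a group are labelled biological replicates with no animal named, so the p-values measure the spread between these samples.

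The signal of the microRNA gene itself set KO apart from WT. Mir142 had a log2 signal of 4.69, 4.70 and 4.26 in KO marrow, against 7.10, 8.25 and 7.14 in WT marrow. It had 4.05, 4.59 and 4.50 in KO spleen, against 6.77, 7.17 and 7.58 in WT spleen. All 6 KO arrays were below all 6 WT arrays, as the labels have it, and the difference over both tissues was -2.82 ± 0.20 (SE, limma adjusted p = 1.73e-06). Both KO means, 4.38 in spleen and 4.55 in marrow, lay below the filter on low signal, so the size of this difference rests on low signal. Mir142 is the deleted gene, so its difference is a check of the labels only. The mean of 10 NK cell markers lay between 11.12 and 11.60 in every array, against 5.49 for the filter on low signal. KO arrays lay above WT arrays in each tissue, at 11.52 to 11.60 against 11.38 to 11.50 in spleen. In marrow they lay at 11.304 to 11.440 against 11.116 to 11.295, a narrow gap. Of the 10 markers, 1 was called within each tissue, the granzyme gene Gzmb, higher in KO by 1.14 in spleen and 1.31 in marrow. The median difference of the 10 was 0.06 in spleen, where Klrk1 was at -0.31, and 0.18 in marrow. The gap in the mean is therefore due in part to Gzmb and is not a measure of purity.

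TGF-beta and activin are dimeric ligands that bring together a type II receptor and a type I receptor, both serine/threonine kinases. The type II receptor (Tgfbr2 for TGF-beta, Acvr2a for activin) phosphorylates the type I receptor (Tgfbr1 for TGF-beta), which in turn phosphorylates Smad2 and Smad3. These bind Smad4 and enter the nucleus, where the complex recognises a short SMAD box in DNA. Smad7 is an inhibitory SMAD that blocks the type I receptor, and Tgfbr3, betaglycan, is a coreceptor that presents ligand. In mouse NK cells TGF-beta is known to restrain activation and metabolism and to favour features of type 1 innate lymphoid cells. Human TGFBR1 and ITGAV have been described as targets of miR-142-3p in cultured human cells.

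The sequences of the deleted microRNA are shown first because it is what separates KO from WT. Both mature strands are given as RefSeq (GRCm38.p6) lists them, with the seed, bases 2 to 8, in capitals. The arms lie on the plus strand at chr11:87756867-87756887 and chr11:87756903-87756925. Their seeds differ.
mmu-miR-142a-5p: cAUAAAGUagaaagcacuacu
mmu-miR-142a-3p: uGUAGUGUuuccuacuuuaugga

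Promoters from RefSeq (GRCm38.p6) could be matched for 6 of the 10 genes, with 7 start sites in all. The 250 bases before the start are shown for 4 genes that differed between KO and WT over both tissues. Capitals mark the SMAD box CAGAC or its complement GTCTG, and the GC box GGGCGG or its complement CCGCCC, which is bound by SP1, a known partner of SMADs. The windows lie at chr2:48813859-48814108 (plus strand, Acvr2a), chr7:25686752-25687001 (plus strand, Tgfb1), chr4:47352972-47353221 (plus strand, the upstream start of Tgfbr1) and chr9:63757995-63758244 (minus strand, Smad3).
Acvr2a: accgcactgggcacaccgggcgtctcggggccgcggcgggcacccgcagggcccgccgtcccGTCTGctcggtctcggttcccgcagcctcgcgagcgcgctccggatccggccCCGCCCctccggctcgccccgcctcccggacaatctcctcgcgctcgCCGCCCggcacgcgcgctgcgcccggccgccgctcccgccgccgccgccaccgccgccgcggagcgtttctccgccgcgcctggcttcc
Tgfb1: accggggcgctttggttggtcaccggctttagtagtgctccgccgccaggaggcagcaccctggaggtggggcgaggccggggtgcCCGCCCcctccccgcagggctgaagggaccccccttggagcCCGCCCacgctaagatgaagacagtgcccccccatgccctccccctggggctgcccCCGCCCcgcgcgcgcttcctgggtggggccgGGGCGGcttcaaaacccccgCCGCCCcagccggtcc
Tgfbr1: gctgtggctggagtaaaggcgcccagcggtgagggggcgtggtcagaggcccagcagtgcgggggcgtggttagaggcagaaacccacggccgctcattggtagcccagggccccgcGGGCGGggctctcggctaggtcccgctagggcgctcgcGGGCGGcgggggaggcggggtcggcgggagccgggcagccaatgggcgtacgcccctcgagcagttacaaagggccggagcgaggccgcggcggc
Smad3: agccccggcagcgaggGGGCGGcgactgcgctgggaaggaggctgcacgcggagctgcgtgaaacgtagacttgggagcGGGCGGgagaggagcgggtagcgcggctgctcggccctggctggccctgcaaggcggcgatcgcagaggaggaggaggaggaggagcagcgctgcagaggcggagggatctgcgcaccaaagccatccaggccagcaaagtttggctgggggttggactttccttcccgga

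The Acvr2a window held 1 SMAD box and 2 GC boxes. The Tgfb1 window held 0 SMAD boxes and 5 GC boxes, and the windows of Smad3 and of the upstream Tgfbr1 start held 0 SMAD boxes and 2 GC boxes each. Over the 7 windows of these genes, 3 held a SMAD box and 5 held a GC box. Of 32851 windows of the same length over all genes, 42.19% held a SMAD box and 32.74% a GC box. A match of these letters is a description of the window and not a binding site.

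Among the ligand and the receptors, 4 genes were higher in KO than in WT NK cells over both tissues, and among the SMADs Smad3 was lower; of all tested genes 8.81% were called higher and 10.3% lower. The largest difference was that of the activin receptor Acvr2a, at 2.41-fold. Tgfbr3 was 1.62-fold, Tgfb1 1.57-fold and Tgfbr1 1.29-fold of the WT level, and Smad3 was 0.748-fold. Smad2, Smad4, Smad7 and Tgfbr2 did not pass limma's test at an adjusted p of 0.05.

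Tgfb1 encodes the ligand that lymphocytes themselves secrete in latent form. Its log2 signal was 8.75, 8.96 and 8.61 in KO marrow, against 8.04, 8.06 and 8.09 in WT marrow. It was 8.30, 8.50 and 8.09 in KO spleen, against 7.85, 7.59 and 7.83 in WT spleen. KO arrays were above WT arrays in each tissue, and the highest arrays were those of KO marrow. The difference was 0.81 ± 0.139 in marrow (SE, limma adjusted p = 0.00385) and 0.49 ± 0.125 in spleen (adjusted p = 0.0292). Over both tissues it was 0.65 ± 0.0869 (adjusted p = 0.000251), with a 95% interval of 0.46 to 0.84. The spleen call was lost without KO spleen replicate 2 (0.43, adjusted p = 0.0821), KO spleen replicate 3 (0.60, adjusted p = 0.0539), WT spleen replicate 2 (0.44, adjusted p = 0.093) or WT spleen replicate 3 (0.47, adjusted p = 0.16).

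Acvr2a encodes the activin type II receptor. Its log2 signal was 8.55, 8.85 and 8.95 in KO marrow, against 7.40, 7.49 and 7.28 in WT marrow. In spleen it was 8.84, 8.87 and 8.58 in KO, against 7.77, 7.55 and 7.56 in WT. The lowest KO array of either tissue stood above the highest WT array of either tissue. The difference was 1.43 ± 0.150 in marrow (SE, limma adjusted p = 0.000134) and 1.11 ± 0.135 in spleen (adjusted p = 0.00031). Over both tissues it was 1.27 ± 0.0938 (adjusted p = 2.4e-06), with a 95% interval of 1.07 to 1.48. It passed the test in both tissues whichever single array was left out.

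Tgfbr3, the coreceptor betaglycan, had a log2 signal of 6.26, 6.38 and 6.71 in KO marrow, against 5.78, 5.77 and 5.64 in WT marrow. It had 6.42, 6.71 and 6.64 in KO spleen, against 5.86, 6.06 and 5.70 in WT spleen. The groups did not overlap in either tissue. The difference was 0.63 ± 0.152 in marrow (SE, limma adjusted p = 0.0255), 0.76 ± 0.137 in spleen (adjusted p = 0.00444) and 0.70 ± 0.0952 over both (adjusted p = 0.000308). The marrow call was lost without KO spleen replicate 3 (adjusted p = 0.0529), KO marrow replicate 3 (adjusted p = 0.0665) or WT marrow replicate 1 (adjusted p = 0.196), and the spleen call without WT spleen replicate 3 (adjusted p = 0.0582). KO spleen arrays bear on the marrow value because all 4 groups share 1 fit and its run term.

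Tgfbr1 encodes the TGF-beta type I receptor kinase. Its log2 signal was 8.23, 8.43 and 8.27 in KO marrow, against 7.98, 8.20 and 8.01 in WT marrow. It was 8.80, 8.79 and 8.61 in KO spleen, against 8.20, 8.40 and 8.27 in WT spleen. The groups did not overlap in either tissue, but in marrow the lowest KO array and the highest WT array were close. The difference passed the test in spleen (0.42 ± 0.108, SE, limma adjusted p = 0.0328) and did not in marrow (0.31 ± 0.120, adjusted p = 0.139). Over both tissues it was 0.36 ± 0.0748 (adjusted p = 0.0051). The spleen call was lost without any one of 5 of the 6 spleen arrays, with an adjusted p between 0.0709 (without KO spleen replicate 1) and 0.226 (without WT spleen replicate 3), and was kept without WT spleen replicate 2.

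Tgfbr2 encodes the TGF-beta type II receptor, which binds the ligand first. Its log2 signal was 8.11, 8.61 and 8.51 in KO marrow, against 8.09, 8.01 and 8.16 in WT marrow. It was 8.21, 8.23 and 8.37 in KO spleen, against 7.97, 8.07 and 8.23 in WT spleen. Both pairs of groups overlapped: KO marrow replicate 1 lay among the WT marrow arrays. Over both tissues the difference was 0.25 ± 0.0961 (SE, limma adjusted p = 0.0916; 95% interval 0.04 to 0.46), and without KO marrow replicate 1 it was 0.33 and passed (adjusted p = 0.0169).

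Acvr1 encodes a type I receptor that serves activin and bone morphogenetic proteins. It had a log2 signal of 4.85, 5.19 and 5.08 in KO marrow, against 4.72, 4.76 and 4.75 in WT marrow. It had 4.71, 4.97 and 4.98 in KO spleen, against 4.72, 4.78 and 4.86 in WT spleen. All 12 values lay under the filter, so the gene carries no test here.

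Smad3, a receptor-activated SMAD that binds DNA, was the only member SMAD called lower in KO cells. Its log2 signal was 8.22, 7.93 and 8.21 in KO marrow, against 8.57, 8.85 and 8.73 in WT marrow. It was 8.53, 8.50 and 8.69 in KO spleen, against 8.71, 8.85 and 8.97 in WT spleen. KO arrays were below WT arrays in each tissue, in spleen by a narrow margin. The difference was -0.54 ± 0.138 in marrow (SE, limma adjusted p = 0.0327) and -0.29 ± 0.124 in spleen, which did not pass (adjusted p = 0.187). Over both tissues it was -0.42 ± 0.0862 (adjusted p = 0.0051). The marrow call was lost when any one of 6 arrays was left out, with an adjusted p between 0.0527 (without WT spleen replicate 2) and 0.0916 (without WT marrow replicate 1). KO spleen replicate 3, KO marrow replicate 2, WT marrow replicate 2 and WT marrow replicate 3 were the other 4. It was also lost when quantile normalization was applied again (-0.44, adjusted p = 0.11).

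The other receptor-activated SMAD, Smad2, had a log2 signal of 7.83, 7.92 and 7.97 in KO marrow, against 8.22, 8.10 and 8.08 in WT marrow. It had 8.05, 8.07 and 7.64 in KO spleen, against 8.22, 8.01 and 8.18 in WT spleen. The groups did not overlap in marrow and overlapped in spleen, and the difference over both tissues was -0.20 ± 0.0862 (SE, limma adjusted p = 0.132).

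Smad4, the common partner SMAD, had a log2 signal of 8.61, 8.57 and 8.62 in KO marrow, against 8.56, 8.75 and 8.89 in WT marrow. It had 8.85, 8.56 and 8.79 in KO spleen, against 8.81, 8.96 and 8.78 in WT spleen. The groups overlapped in both tissues. The difference over both was -0.12 ± 0.0835 (SE, limma adjusted p = 0.369), with a 95% interval of -0.30 to 0.06.

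The inhibitory Smad7 had a log2 signal of 7.10, 7.15 and 6.62 in KO marrow, against 7.04, 7.35 and 7.15 in WT marrow. It had 6.85, 6.90 and 6.60 in KO spleen, against 7.02, 7.22 and 6.95 in WT spleen. The groups overlapped in marrow and stood apart in spleen, with 1 low array in each KO group. The difference over both tissues was -0.23 ± 0.109 (SE, limma adjusted p = 0.169), with a 95% interval of -0.47 to 0.0049.

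**Figure D1:**
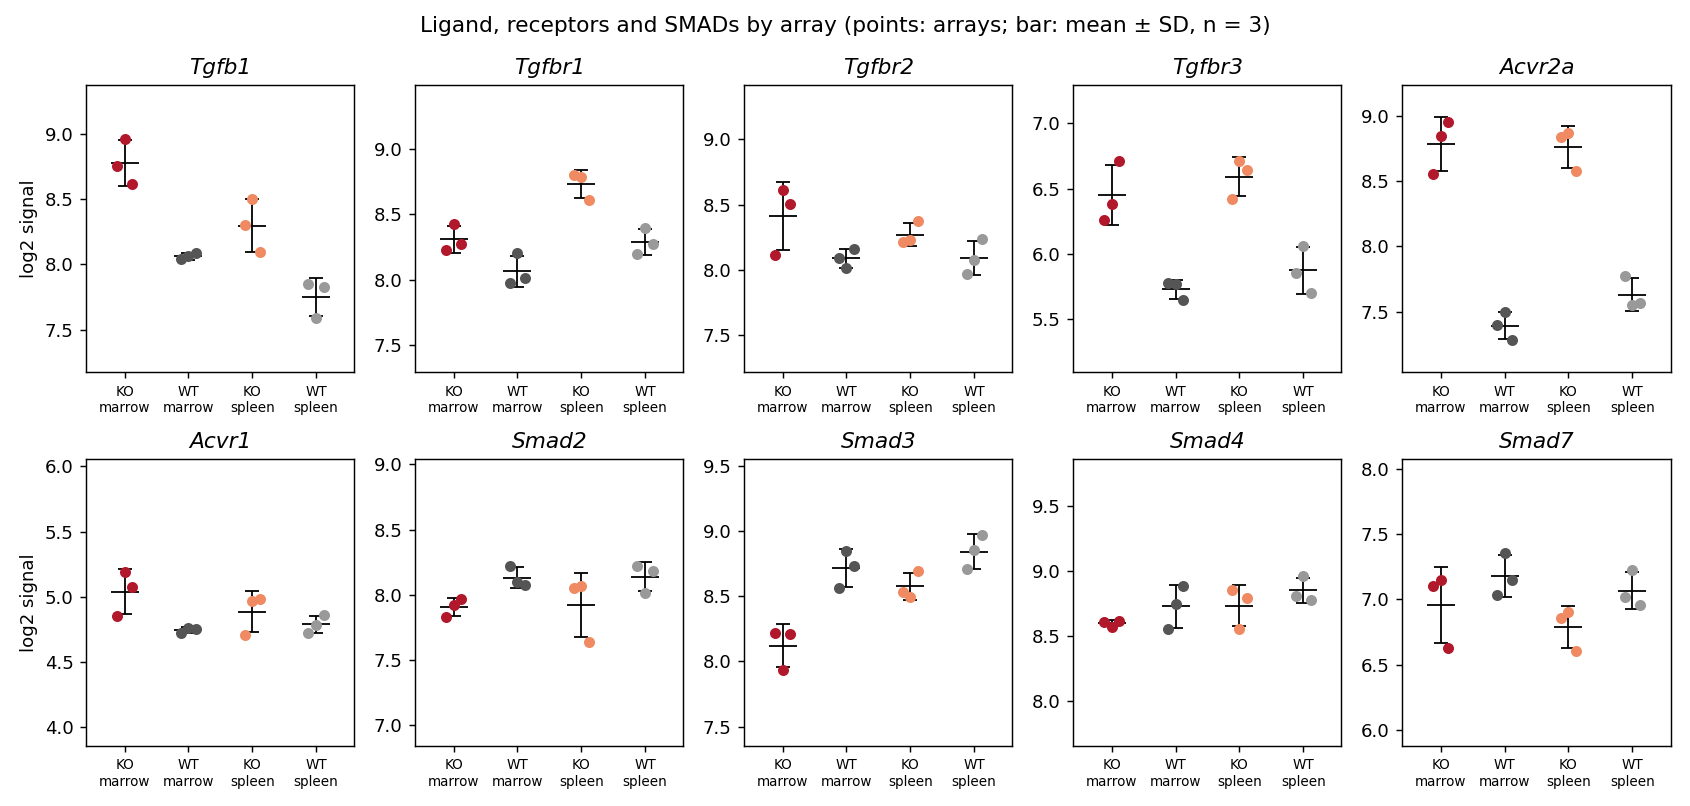
Log2 signal of the 10 genes in each of the 12 arrays, by group (KO and WT bone marrow, then KO and WT spleen); points are arrays and bars are the mean ± SD of 3 arrays. Every panel spans the same number of log2 units, so that the gap of Acvr2a, with all KO arrays at 8.55 or above and all WT arrays at 7.77 or below, can be set against the overlap of Smad4.

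Read as a set, 5 of the 9 tested genes were called over both tissues, 4 higher and 1 lower, where 19.1% of all tested genes were called. In marrow 4 were called, 3 higher (Tgfb1, Tgfbr3 and Acvr2a) and 1 lower (Smad3), against 8.65% of all tested genes (3.92% higher and 4.73% lower). In spleen 4 were called, all higher (Tgfb1, Tgfbr1, Tgfbr3 and Acvr2a), against 9.11% (5.48% higher and 3.63% lower). KO and WT arrays did not overlap for 6 of the 9 genes in marrow, against 34.2% of all tested genes, and for 6 of the 9 in spleen, against 28%. The median difference of the 9 genes over both tissues was 0.25, and that of all tested genes was -0.01. The genes were chosen with earlier results of these data known, so the shares of all tested genes are not an independent background for them. With so few genes, these counts describe the set and were not tested.

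**Figure D2:**
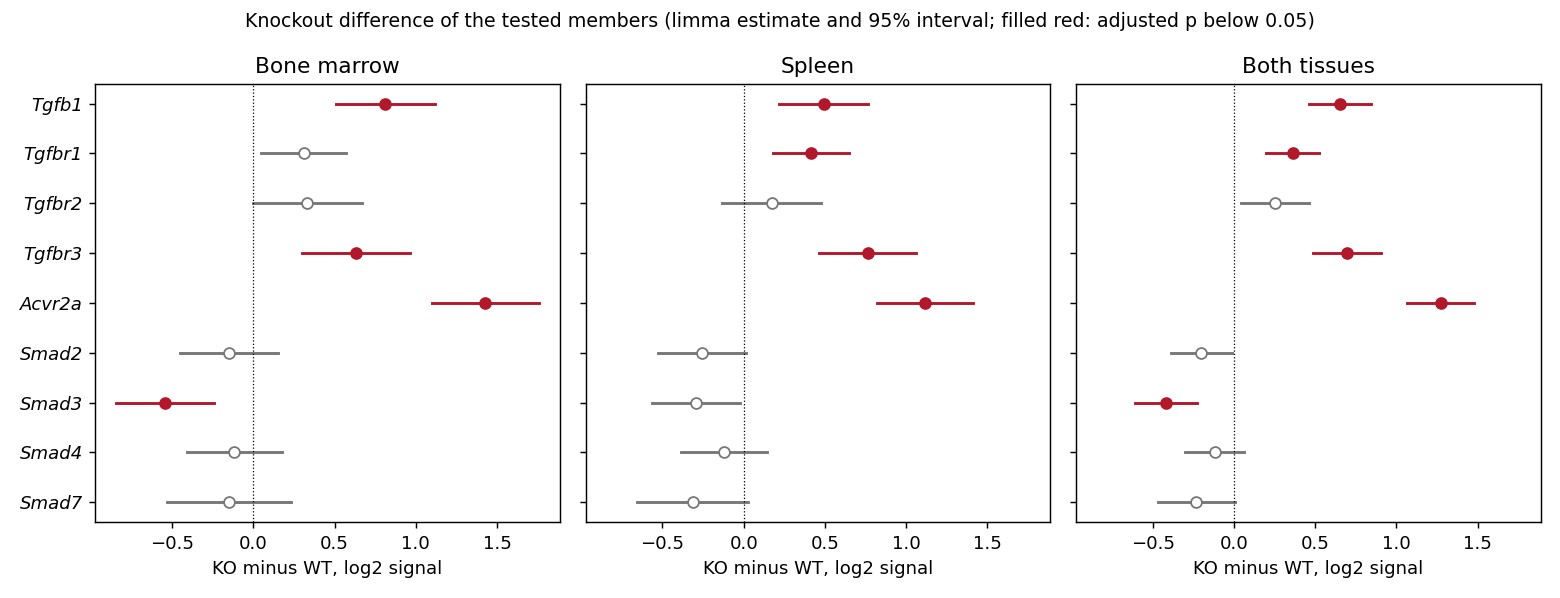
Difference KO minus WT in log2 signal for the 9 tested genes in bone marrow, in spleen and over both tissues; points are limma estimates, lines 95% intervals, and filled red points have an adjusted p below 0.05. Acvr2a lies farthest to the right in all 3 panels, and the 4 SMADs lie left of 0 in each.

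Going by the numbers that the labels give each array, 7 arrays form a first run and 5 a second, and the run was a term of every fit. The labels do not say what a run stands for. All KO marrow arrays were in the first run, so marrow has within-run values there only. In the first run alone the difference over both tissues was 1.15 for Acvr2a (limma adjusted p = 0.0052) and 0.68 for Tgfbr3 (adjusted p = 0.0385), which both passed. It was 0.56 for Tgfb1 (adjusted p = 0.0533), 0.32 for Tgfbr1 (adjusted p = 0.139) and -0.27 for Smad3 (adjusted p = 0.243), which did not. Those fits have 7 arrays, and KO spleen and WT marrow have 1 array each in that run, assumed to vary like the other groups.

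Within tissues, the direction was the same in each run for these 5 genes. In the first run the marrow difference was 1.39 for Acvr2a, 0.74 for Tgfb1, 0.67 for Tgfbr3, 0.33 for Tgfbr1 and -0.44 for Smad3. In spleen it was 0.92 for Acvr2a in the first run and 1.29 in the second. Tgfb1 had 0.38 and 0.57, Tgfbr3 0.68 and 0.87, Tgfbr1 0.32 and 0.53, and Smad3 -0.09 and -0.45 in the same order of runs. Each spleen value within a run rests on 1 array of a genotype, KO in the first run and WT in the second.

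Whether the KO difference itself differed between marrow and spleen was tested with the interaction of genotype and tissue. It passed for 0 of the 9 genes by limma, and for 0 at an unadjusted p under 0.05, which 9.13% of all tested genes had; over all tested genes it passed for 1, or 0.00836%, in the lower direction, and for 0 in the higher. The largest values among the 9 were 0.32 ± 0.200 for Tgfb1 (SE, adjusted p = 0.65) and 0.32 ± 0.216 for Acvr2a (adjusted p = 0.681). A call in 1 tissue and not in the other, as for Tgfbr1 and Smad3, is therefore not a shown difference between tissues.

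Set between tissues, no gene of the 9 passed limma's test in either genotype. In KO cells 0.318% of all tested genes did (0.092% higher in marrow and 0.226% lower), and in WT cells 5.37% (4.34% higher and 1.04% lower). At an unadjusted p under 0.05 there were 3 in KO, where 9.25% of all tested genes had such a p, and 1 in WT, where 22.9% did. The 3 in KO cells were Tgfb1, higher in marrow than in spleen by 0.58 ± 0.139 (SE, adjusted p = 0.151), Tgfbr1 at -0.36 ± 0.120 (adjusted p = 0.348) and Smad3 at -0.40 ± 0.138 (adjusted p = 0.366). The 1 in WT cells was Tgfbr1 at -0.26 ± 0.108 (adjusted p = 0.185), and Tgfb1 had 0.26 ± 0.125 there (adjusted p = 0.243). Marrow and spleen arrays did not overlap for 3 of the 9 genes in KO cells, against 16.3% of all tested genes, and for 2 of the 9 in WT cells, against 31.6%.

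The rest of the pathway was read through 86 further genes in 5 lists, of which 83 were measured and 58 tested. The lists too were chosen with earlier results of these data known, so their counts are descriptions and were not tested. Over both tissues 17 of the 58 rose and 8 fell in KO cells; in marrow 11 rose and 3 fell, and in spleen 8 rose and 5 fell. Of all tested genes, 8.81% were called higher and 10.3% lower over both tissues, 3.92% and 4.73% in marrow, and 5.48% and 3.63% in spleen. The interaction passed for 0 of the 58. The median difference of the 58 over both tissues was 0.01, beside -0.01 for all tested genes.

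Of the genes for other ligands and for ligand activation, 12 of 24 were tested, 3 of which rose and 1 fell over both tissues. Beside this, 8.81% of all tested genes were called higher and 10.3% lower. Itgav, the integrin alpha-v chain that takes part in freeing latent TGF-beta, was higher by 0.66 ± 0.0935 (SE, limma adjusted p = 0.000398). Ltbp3, a latent TGF-beta binding protein, was higher by 0.46 ± 0.0728 (adjusted p = 0.000886), and Furin, the protease that cleaves the TGF-beta precursor, by 0.29 ± 0.0919 (adjusted p = 0.0457). The Furin call was kept in 7 of 23 alternatives, with an adjusted p between 0.00801 and 0.191, and was lost without any one of 10 of the 12 arrays, KO spleen replicate 2 and KO marrow replicate 2 being the exceptions. Tgfb3, another TGF-beta ligand, fell by 0.79 ± 0.173 (adjusted p = 0.00737). Its mean log2 signal was 5.34 in KO spleen and 5.12 in KO marrow, against 5.79 in WT spleen and 6.36 in WT marrow. Both KO means lay below the filter on low signal, so the size of this fall rests on low signal. The activin subunit genes Inha, Inhba and Inhbb, and Tgfb2, lay below the filter on low signal.

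Among other receptors of the family, 5 of 11 were tested and 1 was called. Over both tissues 19.1% of all tested genes were called, so 1 of 5 is near that share. Bmpr2, the type II receptor of bone morphogenetic proteins, was higher by 1.27 ± 0.212 in marrow (SE, limma adjusted p = 0.0034), by 1.13 ± 0.191 in spleen (adjusted p = 0.00306) and by 1.20 ± 0.133 over both (adjusted p = 6.1e-05). Of the other SMADs and their partners, 12 of 14 were tested, and over both tissues 1 rose and 3 fell. The shares of all tested genes were 8.81% higher and 10.3% lower. Smad5, a SMAD of the bone morphogenetic protein branch, was higher by 0.42 ± 0.0885 (adjusted p = 0.00552). Trim33, a nuclear ubiquitin ligase that binds SMADs, fell by 0.37 ± 0.0713 (adjusted p = 0.00312), the coactivator gene Crebbp fell by 0.25 ± 0.0689 (adjusted p = 0.023), and Sp1 fell by 0.25 ± 0.0773 (adjusted p = 0.0434). The Sp1 call was kept in 8 of 23 alternatives (adjusted p between 0.0203 and 0.187) and was lost without any one array but KO marrow replicate 2. The Crebbp call was kept in 18 of 23, and was lost without KO spleen replicate 2, WT spleen replicate 1, KO marrow replicate 3 or WT marrow replicate 1 (adjusted p between 0.0532 and 0.0661) and in the first run alone (adjusted p = 0.269). The Bmpr2 call in marrow was lost without WT marrow replicate 1 (adjusted p = 0.061).

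All 17 listed inhibitors and modulators of the pathway were tested. Over both tissues 7 rose and 0 fell, where 8.81% of all tested genes were called higher and 10.3% lower. Pmepa1, a membrane protein that keeps SMADs from the receptor, was higher by 1.16 ± 0.154 (SE, limma adjusted p = 0.000249). Ldlrad4, a relative of Pmepa1, was higher by 0.57 ± 0.0917 (adjusted p = 0.000952). The ubiquitin ligase gene Smurf1 was higher by 0.51 ± 0.112 (adjusted p = 0.00702), and the deubiquitinase gene Cyld by 0.46 ± 0.0761 (adjusted p = 0.00119). This list also holds Rnf111, Usp15, Usp4 and Usp9x, which are known to favour signalling. Usp9x, a deubiquitinase gene named here after its value was seen, was 1 of the 7 that rose (0.26, adjusted p = 0.0439). The Usp9x call was lost with the replicate number added to the fit (0.25, limma adjusted p = 0.0677).

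Of the genes described as responding to TGF-beta in lymphocytes, rising or falling, 12 of 20 were tested. Over both tissues 5 rose and 4 fell, beside 8.81% of all tested genes called higher and 10.3% lower. Gzmc, a granzyme, was higher by 4.24 ± 0.236 (SE, limma adjusted p = 2.97e-07), and Itga1, the CD49a integrin chain, by 3.44 ± 0.150 (adjusted p = 5e-08). The mean log2 signal of Gzmc was 9.67 in KO spleen and 9.97 in KO marrow. It was 5.38 in WT spleen, below the filter on low signal, and 5.59 in WT marrow, just above it. The size of the Gzmc rise therefore rests on low WT signal. Tnfsf10, which encodes the death ligand TRAIL, was higher by 2.12 ± 0.111 (adjusted p = 1.79e-07). Cxcr3, a chemokine receptor, fell by 2.55 ± 0.167 (adjusted p = 9.21e-07). The rest of the 12 are named to complete the list. Cxcr6 and Id2 also rose, Cd9, S1pr5 and Klf2 also fell, and Cdkn2b, Eomes and Tbx21 were not called. Itgae, Tgfbi, Id1, Id3, Ctla4 and Cd200r1 of this list lay below the filter.

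**Figure D3:**
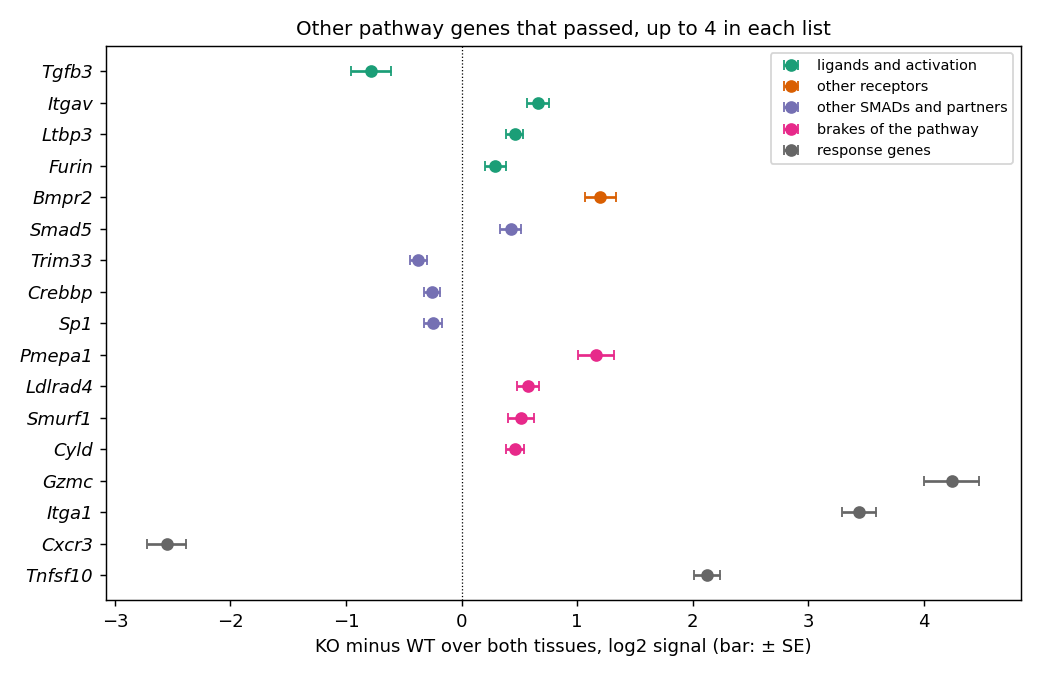
Difference KO minus WT over both tissues, in log2 signal, of up to 4 called genes from each of the 5 other pathway lists; points are limma estimates, bars ± SE, and colours mark the list. The response genes span from Cxcr3 at -2.55 to Gzmc at 4.24, a wider range than the other lists.

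Markers of other cells moved with genotype in some lists. Granulocyte markers (15 genes) had a mean log2 signal of 5.64 to 6.19 in KO marrow, against 6.69 to 6.89 in WT marrow, and 5.51 to 5.98 in KO spleen, against 5.21 to 5.58 in WT spleen. In marrow 4 of the 9 tested granulocyte markers were lower in KO and 0 higher; in spleen 1 was higher and 0 lower. T cell markers had 5.85 to 6.12 in KO marrow, against 6.30 to 6.55 in WT marrow, with 3 of 6 tested lower in KO. In spleen they had 5.72 to 6.07 in KO, against 5.85 to 6.04 in WT, with 1 of 6 tested lower in KO (Cd3d at -1.05, limma adjusted p = 0.0142). The CD3 chain genes Cd3e at 0.55 and Cd3g at 0.44 went the other way there and were not called (limma adjusted p = 0.163 and 0.266). The median difference of the 6 in spleen was -0.02. Monocyte and macrophage markers had 5.29 to 5.62 in KO spleen, against 5.64 to 5.73 in WT spleen, with 1 of 4 tested lower in KO (Ms4a6c at -1.29, adjusted p = 0.000625). Lyz2 of that list went the other way in spleen, at 0.45, and was not called (limma adjusted p = 0.531). The median difference of the 4 in spleen was -0.04. In marrow these markers had 5.63 to 5.78 in KO, against 5.67 to 5.78 in WT. Cd3d, Cd3e, Cd3g, Ms4a6c and Lyz2 were named after their values were seen.

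Dendritic cell markers (11 genes) had 6.46 to 6.53 in KO marrow, against 5.91 to 6.14 in WT marrow, and 6.59 to 6.75 in KO spleen, against 5.90 to 6.24 in WT spleen. In spleen 5 of the 6 tested were higher in KO and in marrow 1 was. The defining dendritic cell markers Flt3, Xcr1, Clec9a, Siglech and Cd209a lay below the filter. Platelet markers ranged from 5.69 to 6.55 in KO marrow, against 5.51 to 6.34 in WT marrow, with 0 of 4 tested called in either tissue.

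With the granulocyte marker mean as a further term, a fit chosen after the data were seen, the difference over both tissues was 1.26 for Acvr2a (limma adjusted p = 6.92e-05), 0.77 for Tgfbr3 (adjusted p = 0.00148) and 0.63 for Tgfb1 (adjusted p = 0.00362). It was 0.31 for Tgfbr1 (adjusted p = 0.0445) and -0.36 for Smad3 (adjusted p = 0.0442), and all 5 calls over both tissues were kept. The marker mean tended to be higher in KO than in WT spleen and was lower in KO than in WT marrow. It can therefore partly cancel in a difference over both tissues, so the kept calls cannot settle the part of these markers. In spleen 1 of the 9 genes passed that fit, Acvr2a at 1.135 (limma adjusted p = 0.0126). In marrow, where the marker mean of KO and WT arrays did not overlap, 0 of the 9 genes passed that fit. The Acvr2a difference there was 1.39 ± 0.316 (SE, adjusted p = 0.109), beside 1.43 ± 0.150 without the term. Among alternatives other than leaving out an array, this fit included, calls over all tested genes went as low as 61 in marrow and 195 in spleen. The main fit called 1035 and 1090. Counts of 0 and 1 of the 9 are therefore not a result about these genes. The part of the T cell, monocyte and dendritic cell markers in these results was not tested. In bulk RNA, fewer cells of a type and less RNA per cell cannot be told apart.

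**Figure D4:**
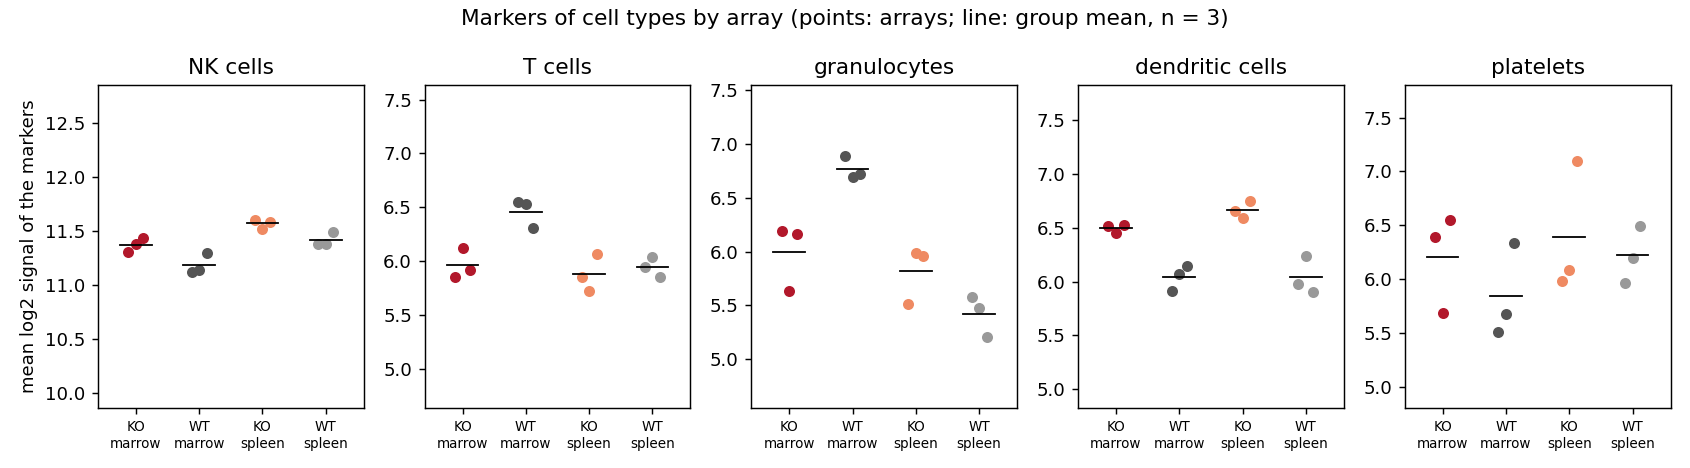
Mean log2 signal of marker lists for NK cells, T cells, granulocytes, dendritic cells and platelets in each array, by group; points are arrays and lines are means of 3 arrays. WT marrow stands highest for granulocyte markers, at 6.69 to 6.89, and both KO groups stand above both WT groups for dendritic cell markers.

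The genes whose 4 group means, each centred on its own average, lay closest to those of Acvr2a were Gstm1, Fndc3a and Rny3, with root mean square distances of 0.0425, 0.0592 and 0.0639 log2 units. Over both tissues Gstm1, a glutathione transferase gene, differed by 1.34 ± 0.123 between KO and WT. Closest to Tgfbr3 were Vamp3, H2bc21 and Ece1, at 0.0168, 0.0169 and 0.0197 log2 units. Vamp3, a vesicle fusion protein gene, differed by 0.71 ± 0.0888. These distances rest on 4 group means each and describe likeness of pattern only.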

How the data were processed

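The 12 samples were hybridised to Affymetrix arrays after NuGEN amplification of total RNA, per the labels' protocols. The values deposited by the authors are log2 signals from RMA (background correction, quantile normalization and probe summary) in Affymetrix Expression Console, per the submitters' processing notes and the range of the values; no version is stated. RMA normalizes the arrays to each other, so differences are relative to the other genes of an array. The deposited probe set values were nevertheless not on 1 distribution. Their upper quartile was 7.24 to 7.35 in KO marrow and 7.399 to 7.425 in WT marrow. The lower quartile was 4.63 to 4.65 in KO marrow and 4.55 to 4.60 in WT marrow. The cause was not tested. The array medians were 5.75 to 5.87, and the number of arrays limits the precision.

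Of 35556 probe sets, 21789 carried 1 symbol in GEO's platform annotation, 1621 several and 12146 none; 21698 of the single symbols were in the RefSeq GRCm38.p6 gene table, and 0 were updated. The probe set with the highest mean was kept for a gene. Genes whose mean exceeded the 40th percentile of all (5.49) were tested with limma 3.58.1 in R 4.3.3, with the 4 groups and the run of array numbers as terms, 7 residual and 4.74 prior degrees of freedom, and Benjamini-Hochberg adjustment over 11963 genes. The script was tested on simulated data. Promoter and microRNA sequences came from RefSeq. The member genes and the lists were chosen with earlier results of these data known. Named are all members, Mir142, up to 4 called genes with the largest difference per list and comparison, and the 3 genes closest in pattern to the 2 members with the largest difference. Same-numbered samples were not paired in the main fit. Of 18 correlations of their deviations, 6 exceeded 0.1, over a range of -0.02 to 0.24. Between marrow and spleen of the same genotype they were 0.13, 0.04 and 0.20 in KO, and 0.13, 0.04 and 0.13 in WT. The labels name no animal, so whether marrow and spleen came from the same mice cannot be told from these values. The replicate block goes by replicate number across genotypes, not by animal. Alternatives covered the run term, the replicate block, normalization, the filter, the probe set rule, the variance prior, array weights, each run alone, the groups in the fit and leaving out each array.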

Additional observations from a re-analysis of the deposited data

How the results depend on the processing

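Over both tissues, 5 member genes were called, and leaving out each array in turn gave 5 to 6. The first run of array numbers alone, added after the data were seen, gave 2 calls, with fewer arrays in the fit. In spleen, 4 were called; leaving out each array gave 1 to 4, the first run alone 0, the second run alone 1, and the granulocyte marker term 1. In marrow, 4 were called; leaving out each array gave 2 to 4, the first run alone 1, and the granulocyte marker term 0. Leaving out WT spleen replicate 3 gave the 1 in spleen, KO spleen replicate 2 or 3 gave 2 there, and KO spleen replicate 3 or WT marrow replicate 1 gave 2 in marrow. The interaction and both tissue comparisons had 0 member calls under every alternative run. With the replicate block the counts were 5 over both tissues, 4 in marrow and 4 in spleen, and no member call changed; of the other pathway genes, Ltbp1 in marrow, Furin and Usp9x over both tissues and Ltbp3 between tissues in WT lost their calls, and Ldlrad4 and Id2 in spleen, Smad5 in marrow and Cxcr6 between tissues in WT gained one. Tgfbr3 fell out of the test under a filter at the 60th percentile.

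Signs turned only for differences that had not passed. Smad4 in marrow was 0.0424 in the first run, Tgfbr2 in spleen was -0.0142 in the second run, and Tgfbr2 in marrow was -0.0406 and Tgfbr1 between tissues in WT 0.061 with the granulocyte marker term. Leaving out each array, the marrow difference ranged from -0.247 to 0.0151 for Smad7, the highest without KO marrow replicate 3, and from -0.2495 to 0.0622 for Smad2, the highest without WT marrow replicate 1. The cause was not tested.

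Of the 58 other pathway genes, 13 were called in spleen (7 to 15 on leaving out each array, 5 to 16 otherwise), 14 in marrow (7 to 14, and 3 to 20) and 25 over both (20 to 25, and 16 to 26). Over all genes, 1090 were called in spleen (546 to 1083, and 195 to 1202), 1035 in marrow (371 to 1006, and 61 to 1590) and 2290 over both (1675 to 2178, and 898 to 2483). Between tissues 38 were called in KO (1 to 38, and 29 to 87) and 643 in WT (82 to 702, and 0 to 1135), and for the interaction 1 (0 to 5 in both sets of alternatives). Repeating the quantile normalization or centring each array on its median moved the median of all genes by at most 0.0749. For KO minus WT in marrow, 539 genes were called higher and 380 lower with quantile normalization, beside 469 and 566 without it. Between tissues in WT the split was 420 higher and 179 lower with quantile normalization and 901 and 76 with median centring, beside 519 and 124.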

Other observations

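Between tissues, 4 of the 58 other pathway genes passed limma's test in WT cells, where 5.37% of all tested genes did. Leaving out each array gave 1 to 3 such calls, with 1 when WT spleen replicate 1 or 2 or WT marrow replicate 1 or 2 was left out, and the other alternatives gave 0 to 6. S1pr5, a sphingosine phosphate receptor that NK cells use to leave the marrow, was lower in marrow than in spleen by 1.23 on the log2 scale (-1.23 ± 0.131, SE, adjusted p = 0.000918). Ltbp3 was lower in marrow (-0.41 ± 0.105, adjusted p = 0.0432), as was Fstl3, a binding protein of activin (-0.40 ± 0.0919, adjusted p = 0.0286). Strap, a receptor-associated WD-repeat protein gene, was higher in marrow (0.56 ± 0.147, adjusted p = 0.0494). In KO cells 1 of the 58 passed, S1pr5 at -1.13 ± 0.146 (adjusted p = 0.00561), which was lost without KO spleen replicate 3 (-1.08, adjusted p = 0.147). In WT cells the S1pr5 call was kept in 22 of 23 alternatives, that of Fstl3 in 14, that of Ltbp3 in 7 and that of Strap in 6. Granulocyte markers were also higher in WT marrow than in WT spleen, with 7 of 9 tested called. With the granulocyte marker term in the fit, 0 of the 58 pathway genes and 0 of all tested genes passed between tissues in WT cells.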
